A study of Mus musculus with 24 samples.

Results

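Transcripts of 8 genes of cholesterol metabolism, Hmgcs1, Idi1, Sqle, Lss, Cyp51, Dhcr7, Stard4 and Insig1, were followed in the livers of mice fed the glucoside phloridzin. The members were all probe sets whose only symbol in the platform's gene annotation was that of 1 of these genes. They are 8 of the 18193 genes named by 1 symbol on the array and were covered by 19 probe sets, of which 18 passed the filter on dim probe sets. All 8 genes were among the 13118 genes tested. They are grouped under cholesterol synthesis and uptake, but none of them encodes a lipoprotein receptor: 6 encode enzymes of the synthesis pathway, Stard4 a sterol carrier inside the cell and Insig1 a regulator of the pathway. The values therefore bear on synthesis and sterol handling and not on uptake.

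Cholesterol is made from acetyl-CoA through HMG-CoA, mevalonate, the isoprenoid diphosphates, squalene and lanosterol, and the liver is a main site of this synthesis and of the disposal of cholesterol in bile. The genes of the pathway are switched on together by SREBP-2, a transcription factor that is held in the endoplasmic reticulum by SCAP and INSIG proteins while sterols are plentiful and is released to the Golgi, cleaved and sent to the nucleus when they are scarce. Insig1 is itself a target of SREBP and closes a feedback loop on the pathway.

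The animals were male BALB/c mice labelled as 6 weeks old, housed 3 per cage and given AIN-93G, a purified rodent diet, with 0 (control), 0.1, 0.5 or 1.0% phloridzin for 14 days. Phloridzin, found in apple, blocks sodium-glucose cotransport, and the series asks about its effect on blood glucose and on hepatic gene expression. Whole liver RNA was hybridised to 24 single-colour mouse expression arrays, 6 for each diet. The arrays did not hold 24 separate RNA samples: 18 arrays formed 8 sets of near-identical arrays, and after joining arrays that shared an RNA 11 RNA samples were left. Control liver had 4 of them (replicates 1 with 3, 2 with 4, 5 alone and 6 alone). The 0.1% diet had 3, which were replicates 2, 4 and 5. The 0.5% diet had 2, replicates 1, 2, 3 and 6 being 1 RNA and replicates 4 and 5 another, and the 1.0% diet had 2, replicates 2, 3, 5 and 6 being 1 RNA and replicate 4 another. A further RNA was labelled with 2 diets (0.1% replicates 1, 3 and 6, and 1.0% replicate 1) and entered no comparison. Whether the 11 samples are 11 mice is not known, and every p-value rests on the spread between them. Their number limits the precision.

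The tissue is labelled as liver, and the hepatocyte genes Alb, Ttr, Apoa1, Cyp2e1 and Tat lay between 10.65 and 14.06 (log2 signal) in every RNA, well above the floor of the scale at 3.00. The cholangiocyte markers Krt19, Epcam and Sox9 and the lymphocyte marker Ms4a1 averaged 3.28 to 4.01 in control liver, near that floor. Some markers of other liver cells were also well above it, with control means of 9.76 for Dcn and 9.44 for Reln (stellate cells) and 9.26 for Clec4g (sinusoidal endothelium). Others of the same lists were lower, such as Col1a1 at 4.74 and Lyve1 at 5.40. The measured Kupffer cell markers ran from 4.99 for Timd4 to 8.80 for Cd5l, with Vsig4 at 8.71 and Clec4f at 8.43. Neutrophil markers ran from 3.73 for Elane to 5.82 for S100a9, with Mpo at 3.99 and S100a8 at 5.66. In whole liver, fewer cells of a type and less RNA per cell cannot be told apart. All levels below are log2 signals after quantile normalization, and all differences are log2 differences from the same fit in limma. Levels of different probe sets were not compared with each other.

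Because SREBP acts on these genes through their promoters, the 250 bases upstream of the RefSeq start (GRCm38.p6) were searched on both strands for a sterol regulatory element (SRE, TCACNCCAC), the CCAAT box bound by NF-Y, the E-box CACGTG and the GC box GGGCGG; none of the printed matches overlaps another. Windows of 6 of the 8 genes were searched, 8 windows in all, since Dhcr7 has 3 start sites there. Sqle had no window. The chromosome of Stard4 was left out of the members' search but not out of the windows counted over all genes. The SRE was in 1 of the 8 windows, that of Hmgcs1, against 1.05% of all 32851 windows of this length. The CCAAT box was in 6 of the 8 windows (33.8% of all windows) and the GC box in 7 of 8 (32.7%), each with at least 1 window in every one of the 6 genes. The E-box was in 2 of 8 windows, of Insig1 and Dhcr7 (6.02%). The promoters of Hmgcs1, Insig1 and Idi1 are shown for contrast, since Hmgcs1 holds the SRE, Insig1 the E-box and Idi1 neither, and since the levels of Hmgcs1 went with those of Idi1 but not with those of Insig1. Capitals mark the SRE, the CCAAT boxes (ATTGG on the strand shown) and the E-box; each sequence ends at the base before the start site and lies on the plus strand.
Hmgcs1, chr13:119690101-119690350: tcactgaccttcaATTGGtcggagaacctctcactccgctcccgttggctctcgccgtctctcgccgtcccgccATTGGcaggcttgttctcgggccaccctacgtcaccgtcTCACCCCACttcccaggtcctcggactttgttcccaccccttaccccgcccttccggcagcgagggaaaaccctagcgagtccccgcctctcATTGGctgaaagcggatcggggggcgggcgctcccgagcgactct
Insig1, chr5:28071162-28071411: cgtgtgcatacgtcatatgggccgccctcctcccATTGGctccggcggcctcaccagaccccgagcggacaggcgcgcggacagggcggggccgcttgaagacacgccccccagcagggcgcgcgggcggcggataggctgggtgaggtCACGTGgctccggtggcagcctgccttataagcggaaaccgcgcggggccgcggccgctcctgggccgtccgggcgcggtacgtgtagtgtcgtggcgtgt
Idi1, chr13:8885356-8885605: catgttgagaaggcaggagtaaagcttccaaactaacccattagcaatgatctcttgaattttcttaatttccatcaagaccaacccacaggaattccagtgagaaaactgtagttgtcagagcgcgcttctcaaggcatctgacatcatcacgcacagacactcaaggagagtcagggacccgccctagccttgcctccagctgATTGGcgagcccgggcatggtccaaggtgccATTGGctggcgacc
The SRE of Hmgcs1 lies 137 to 129 bases upstream of the start, and the E-box of Insig1 101 to 96 bases upstream. A match of letters is a description of the window and not of binding.

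With 1.0% phloridzin, Stard4, Idi1 and Insig1 stood above every control sample in both RNA samples, as did 8.23% of all genes. The largest difference, that of squalene epoxidase (Sqle), was 1.88-fold with overlapping groups. With 0.1% the higher means were those of Sqle, Dhcr7, Lss and Insig1. Hmgcs1 and Idi1 had means below control, but each had another probe set above it. With 0.5% only Dhcr7 of the 8 lay above every control sample, as did 9.16% of all genes. The 2 samples of this diet lay on opposite sides of the control mean for 6 of the 8 genes, all but Sqle and Dhcr7. None of the 8 genes passed the threshold (limma, adjusted p under 0.05 over 13118 genes) in any comparison, so the differences below are described and none is called.

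**Figure D1:**
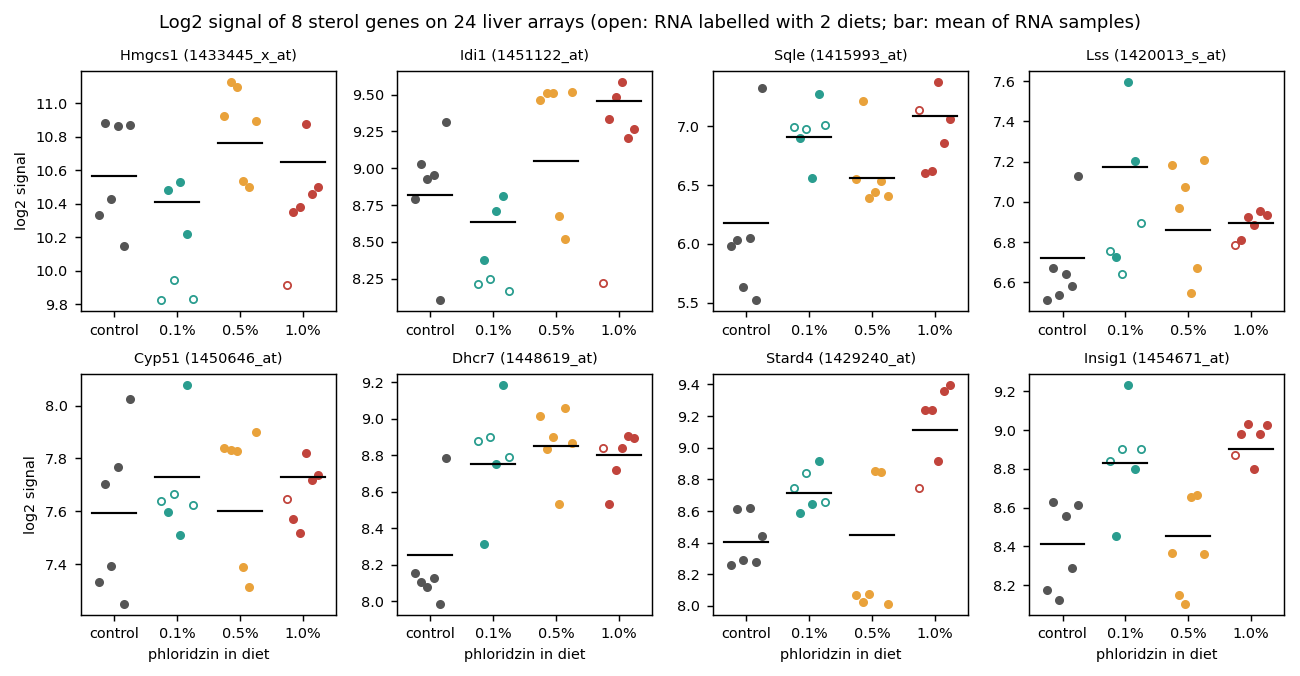
Log2 signal (y axis) of the chosen probe set of each of the 8 genes on all 24 arrays, by percent of phloridzin in the diet (x axis). Filled points are arrays of the 11 RNA samples used, open points the 4 arrays of the RNA labelled with 2 diets, and bars the mean over RNA samples. The 4 arrays of 1 RNA at 0.5% lie together for Stard4, below all 6 control arrays, and for Hmgcs1, above all 6.

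Hmgcs1 encodes the cytosolic synthase that makes HMG-CoA, from which mevalonate is formed. Its probe set 1433445_x_at measured 10.38, 10.87, 10.15 and 10.87 in the 4 control samples, 10.48, 10.53 and 10.22 at 0.1%, 11.01 and 10.52 at 0.5%, and 10.42 and 10.88 at 1.0%. All diets overlapped, and the highest value of the 11 was the 0.5% RNA of replicates 1, 2, 3 and 6. The means were 10.57 ± 0.36 (SD, n = 4), 10.41 ± 0.17 (n = 3), 10.77 ± 0.35 (n = 2) and 10.65 ± 0.32 (n = 2). At 1.0% the difference from control was 0.08 ± 0.21 (SE), with a 95% interval of -0.37 to 0.53 (limma adjusted p = 0.969). It was -0.16 ± 0.19 at 0.1% (adjusted p = 0.825) and 0.20 ± 0.21 at 0.5% (adjusted p = 0.984). In the RNA labelled with 2 diets Hmgcs1 was at 9.88, under all 11 samples.

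The other probe sets of Hmgcs1 did not all give the same picture. At 0.1% they differed from control by 0.14 (1433443_a_at), -0.15 (1433444_at) and -0.45 (1433446_at). The positive value rested on 0.1% replicate 4, where 1433443_a_at measured 11.22 against 10.12 and 10.04 in the other samples of that diet. This RNA also had the widest gap between the 3' and 5' probe sets of actin, 2.32 (log2) against 1.21 to 1.78 in the other 10 samples, and the part of this gap in the result was not tested. At 1.0% the 3 probe sets were at 0.02, 0.01 and 0.34. A further probe set, 1441536_at, was near the floor at 3.33 ± 0.22 (SD, n = 4) in control liver and did not pass the filter.

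Idi1 encodes isopentenyl-diphosphate isomerase, which interconverts the small building blocks of isoprenoids. Its log2 signal (1451122_at) was 8.86, 8.99, 8.10 and 9.31 in control liver, 8.38, 8.71 and 8.81 at 0.1%, 9.50 and 8.60 at 0.5%, and 9.32 and 9.59 at 1.0%. Both 1.0% samples were above all controls, although the lower exceeded control replicate 6 by little, and the 0.5% samples fell on either side of it. The diet means were in the order 0.1% (8.63 ± 0.23, SD, n = 3), control (8.82 ± 0.51, n = 4), 0.5% (9.05 ± 0.64, n = 2) and 1.0% (9.46 ± 0.19, n = 2). At 1.0% Idi1 was 1.56-fold the control level (0.64 ± 0.29, SE; limma adjusted p = 0.761; 95% interval 0.02 to 1.26). The difference was -0.18 ± 0.25 at 0.1% (adjusted p = 0.852) and 0.23 ± 0.29 at 0.5% (adjusted p = 0.984).

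A separate probe set of Idi1, 1423804_a_at, gave 0.28, 0.29 and 0.62 at the 3 doses, so the sign at 0.1% depended on the probe set and the value at 1.0% did not. Its values correlated with those of 1451122_at at r = 0.79 over the 11 samples. Idi1 also had the steepest slope of the 8 genes on the percent of phloridzin, 0.71 per 1% of diet (limma adjusted p = 0.491). The RNA labelled with 2 diets was at 8.21.

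Sqle encodes squalene epoxidase, which adds the oxygen that becomes the hydroxyl group of cholesterol. Its only probe set (1415993_at) measured 5.81, 6.04, 5.52 and 7.32 in control liver, 6.90, 6.56 and 7.27 at 0.1%, 6.64 and 6.49 at 0.5%, and 6.79 and 7.38 at 1.0%. Of the controls, 3 were below all phloridzin samples, and control replicate 6 was above all of them but 1.0% replicate 4. The means were 6.17 ± 0.80 (SD, n = 4), 6.91 ± 0.36 (n = 3), 6.56 ± 0.11 (n = 2) and 7.08 ± 0.42 (n = 2). Against control, Sqle was 1.66-fold at 0.1% (0.74 ± 0.34, SE; limma adjusted p = 0.588), 1.31-fold at 0.5% (0.39 ± 0.38; adjusted p = 0.984) and 1.88-fold at 1.0% (0.91 ± 0.38; adjusted p = 0.761). Without control replicate 6 the differences were 1.12, 0.77 and 1.29, and without control replicate 5 they were 0.52, 0.17 and 0.69. Without 1.0% replicate 4 the 1.0% value was 0.61, and none of these was called. Sqle was also the least repeatable of the 8: the SD between arrays of 1 RNA was 0.21, and 0.5% replicates 2 and 3, which share an RNA, differed by 0.82.

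Lss encodes lanosterol synthase, which folds oxidosqualene into the first sterol of the pathway. It measured 6.52, 6.66, 6.58 and 7.13 in control liver (1420013_s_at), 6.73, 7.60 and 7.20 at 0.1%, 7.11 and 6.61 at 0.5%, and 6.91 and 6.88 at 1.0%. The groups overlapped at every dose, and the highest value was again 0.1% replicate 4, the RNA with the wide actin gap. The means were 6.72 ± 0.28 (SD, n = 4), 7.17 ± 0.44 (n = 3), 6.86 ± 0.35 (n = 2) and 6.89 ± 0.02 (n = 2). Lss was 1.37-fold the control level at 0.1% (0.45 ± 0.21, SE; limma adjusted p = 0.592) and 0.24 above it without 0.1% replicate 4. It differed by 0.14 ± 0.24 at 0.5% (adjusted p = 0.987) and by 0.17 ± 0.24 at 1.0% (adjusted p = 0.915; 95% interval -0.34 to 0.69). The better measured of its other probe sets, 1426913_at, was at 0.09, -0.12 and -0.15 and correlated weakly with 1420013_s_at (r = 0.32 over 11 samples), so neither the size at 0.1% nor the sign at the higher doses was shared. The remaining one, 1420014_at, was dim (3.51 in control liver) and gave 0.39, -0.12 and 0.19 (r = 0.69 with 1420013_s_at).

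Cyp51 encodes lanosterol demethylase, the cytochrome P450 of the pathway. The probe set 1450646_at was at 7.36, 7.73, 7.25 and 8.03 in control liver, 7.60, 7.51 and 8.08 at 0.1%, 7.85 and 7.35 at 0.5%, and 7.64 and 7.82 at 1.0%. Control replicate 6 and 0.1% replicate 5 were the highest and the diets overlapped throughout. The means were 7.59 ± 0.36 (SD, n = 4), 7.73 ± 0.31 (n = 3), 7.60 ± 0.35 (n = 2) and 7.73 ± 0.13 (n = 2). Its differences were the smallest of the 8 genes at 0.5%, 0.01 ± 0.23 (SE; limma adjusted p = 0.997), and were 0.13 ± 0.20 at 0.1% (adjusted p = 0.869) and 0.14 ± 0.23 at 1.0% (adjusted p = 0.934; 95% interval -0.36 to 0.63). The probe set 1422533_at followed it over the samples (r = 0.91) and gave 0.35, -0.16 and 0.25. The dim 1422534_at (3.94 in control liver) gave 0.17, 0.22 and 0.12. Arrays of 1 RNA differed by an SD of 0.03 for 1450646_at against 0.32 between RNA samples of 1 diet.

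Dhcr7 encodes the reductase that turns 7-dehydrocholesterol into cholesterol, the last step of the pathway. Its only probe set (1448619_at) measured 8.12, 8.12, 7.99 and 8.79 in control liver, 8.32, 8.75 and 9.19 at 0.1%, 8.90 and 8.80 at 0.5%, and 8.76 and 8.84 at 1.0%. All 7 phloridzin samples were above control replicates 1 to 5, and control replicate 6 lay among them. Both 0.5% samples were above all controls, each by a margin under the SD between arrays of 1 RNA. The means were 8.25 ± 0.36 (SD, n = 4), 8.75 ± 0.44 (n = 3), 8.85 ± 0.08 (n = 2) and 8.80 ± 0.05 (n = 2), so that the 3 doses were within 0.10 of each other. Dhcr7 was 1.41-fold the control level at 0.1% (0.50 ± 0.20, SE; limma adjusted p = 0.551), 1.51-fold at 0.5% (0.60 ± 0.23; adjusted p = 0.825) and 1.46-fold at 1.0% (0.55 ± 0.23; adjusted p = 0.761). The 0.1% value was 0.28 without 0.1% replicate 5. Arrays of 1 RNA differed by an SD of 0.13, and by 0.52 between 0.5% replicates 4 and 5. The RNA labelled with 2 diets was at 8.85.

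Stard4 encodes a small soluble protein that carries sterols between membranes. Its log2 signal (1429240_at) was 8.28, 8.62, 8.28 and 8.44 in control liver, 8.59, 8.65 and 8.92 at 0.1%, 8.05 and 8.85 at 0.5%, and 9.31 and 8.92 at 1.0%. Both 1.0% samples exceeded all controls, and the 0.5% diet held both the lowest value of the 11 samples and a value above all controls. The means were 8.40 ± 0.16 (SD, n = 4), 8.72 ± 0.18 (n = 3), 8.45 ± 0.57 (n = 2) and 9.11 ± 0.28 (n = 2). At 1.0% Stard4 was 1.64-fold the control level (0.71 ± 0.20, SE), with the lowest unadjusted p of the 8 genes in any comparison with control (0.00339; limma adjusted p = 0.715; 95% interval 0.28 to 1.14). It differed from control by 0.31 ± 0.18 at 0.1% (adjusted p = 0.634) and by 0.05 ± 0.20 at 0.5% (adjusted p = 0.995). Between 1.0% and 0.5% the difference was 0.66 ± 0.23 (adjusted p = 1.00).

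The other probe sets of Stard4 had the same sign at 1.0% with smaller values. The probe set 1429239_a_at gave 0.21, -0.28 and 0.34 at the 3 doses, and 1455011_at gave 0.09, 0.10 and 0.30. They correlated with 1429240_at at r = 0.72 and 0.58 over the 11 samples. At 0.5% the 3 probe sets therefore had both signs. The RNA of 0.5% replicates 1, 2, 3 and 6, in which Stard4 was lowest, was also the sample with the lowest mean of 15 clock genes (-0.70 against the control mean, with controls from -0.16 to 0.14) and the lowest Nr1d1, a repressor of the clock (3.56 against 6.46 to 6.69 in control liver). The part of this shift in the result was not tested.

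Insig1 encodes a protein of the endoplasmic reticulum that retains SCAP with SREBP when sterols are plentiful. Its only probe set (1454671_at) measured 8.15, 8.59, 8.29 and 8.62 in control liver, 8.45, 9.23 and 8.80 at 0.1%, 8.25 and 8.66 at 0.5%, and 8.80 in replicate 4 at 1.0%. The other 1.0% RNA was higher still, at 0.59 above the control mean. Both 1.0% samples and 2 of the 3 samples at 0.1% were above all controls. The means were 8.41 ± 0.23 (SD, n = 4), 8.83 ± 0.39 (n = 3), 8.45 ± 0.29 (n = 2) and 8.90 ± 0.15 (n = 2), which puts 0.5% next to control and 0.1% next to 1.0%. Insig1 was 1.34-fold the control level at 0.1% (0.42 ± 0.18, SE; limma adjusted p = 0.563) and 0.49 ± 0.20 above it at 1.0% (adjusted p = 0.761). At 0.5% the difference was 0.04 ± 0.20 (adjusted p = 0.995; 95% interval -0.40 to 0.48). The 0.1% value was 0.22 without replicate 4, the RNA with the wide actin gap, which held the highest Insig1 value of all samples. The part of this gap in the result was not tested. Arrays of 1 RNA differed by an SD of 0.03, the smallest of the 8 genes, against 0.29 between RNA samples of 1 diet.

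**Figure D2:**
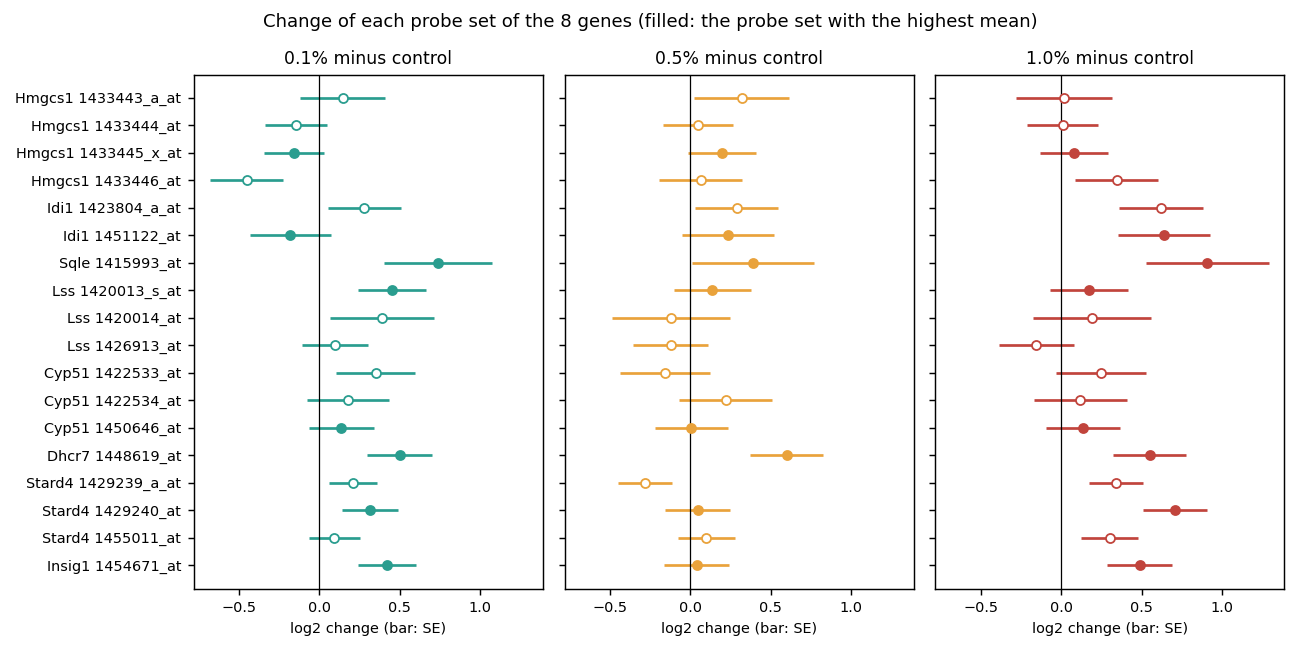
Log2 change against control (x axis, with SE bars) of the 18 probe sets of the 8 genes that passed the filter, in a panel for each dose of phloridzin. Filled points are the probe set with the highest mean of each gene. At 1.0% 17 of 18 points lie above 0, and at 0.5% the probe sets of Lss, Cyp51 and Stard4 lie on both sides of it.

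Counted over all probe sets, 14 of 18 were above control at 0.1%, 14 at 0.5% and 17 at 1.0%, and 0 were called among 22793 probe sets tested in each comparison. Of the 5 genes with more than 1 probe set past the filter, Hmgcs1 and Idi1 had both signs at 0.1%, Lss, Cyp51 and Stard4 at 0.5%, and Lss at 1.0%. Sqle, Dhcr7 and Insig1 had 1 probe set each, so no such check was possible for them. Probe sets of a gene share the RNA and are not replicates.

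At 0.1% phloridzin 6 of the 8 genes were above control, against 50.6% of all genes, with a median difference of 0.37 (all genes 0.00). Of the members, 0 were called by limma, against 0.0229% of all genes. At an unadjusted p under 0.05 the count was 3 (Sqle, Dhcr7 and Insig1; 8.47% of all genes). That count was 0 without control replicates 1 and 3, control replicate 5 or 0.1% replicate 5, and 1 without control replicates 2 and 4 or 0.1% replicate 4. It was also 0 when arrays were centred on their medians or not scaled, and with a floor of 16 or 32. Leaving out the filter or the variance trend gave 0 as well, and 75th percentile scaling gave 3. No gene had all 3 samples above all controls (4.13% of all genes did) or all below (3.74%). Idi1 and Hmgcs1 were the members below control, each with another probe set above it (0.28 and 0.14). Mvk, Pmvk, Mvd and Fdps, other enzymes of the early pathway, were above control at this dose (0.10, 0.53, 0.06 and 0.10).

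At 0.5% all 8 genes had a mean above control (51.1% of all genes), but the values were small, with a median of 0.17 (all genes 0.01), and the count was 4 without the RNA of replicates 1, 2, 3 and 6, 5 without control replicate 5, 5 when arrays were centred on their medians and 2 without scaling. These scalings moved the median of all genes to -0.09 and -0.19, and relative to that median 5 of the 8 genes were above it under each of the 3 other scalings, with a median of 0.10 to 0.11. The call count was 0 (0.00762% of all genes), and Dhcr7 was the only member at an unadjusted p under 0.05 (5.22%), which no member reached without control replicate 5 or 0.5% replicates 4 and 5, and 2 reached without control replicate 6. Under the 3 other scalings, with a floor of 32 or without the filter, no member reached that unadjusted p either. Dhcr7 was also the only gene with both samples above all controls (9.16% of all genes), and no member had both below (8.69%). The samples of this diet differed from each other in opposite directions: the RNA of replicates 1, 2, 3 and 6 was the higher for all 6 enzymes, from 0.11 for Dhcr7 to 0.90 for Idi1, and the lower by 0.81 for Stard4 and 0.41 for Insig1. The median of the members was 0.10 without that RNA and 0.42 without the RNA of replicates 4 and 5, and 0.03 without control replicate 5.

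At 1.0% all 8 genes were above control (46% of all genes), with a median of 0.52 (all genes -0.02), and 0 were called (0.0152% of all genes). The sign was that of quantile-normalized data: centring arrays on their medians put Hmgcs1, Lss and Cyp51 below 0, but moved the median of all genes to -0.20 too. Lss was also below 0 when probe sets marked _x_ and _s_ were left out (-0.15), and Hmgcs1 without control replicate 5 (-0.06) or 1.0% replicate 4 (-0.15). Relative to that median 7 of the 8 genes were above it under each of the 3 other scalings, all but Hmgcs1 (-0.02 to -0.03), with a median of 0.43 to 0.44, against 8 genes and 0.54 with quantile normalization. Idi1, Sqle, Dhcr7, Stard4 and Insig1 had an unadjusted p under 0.05, 5 of 8 against 6.49% of all genes. This count was 3 without control replicates 2 and 4, 1 without control replicates 1 and 3, control replicate 5 or either 1.0% sample, and 0 when arrays were centred on their medians. It was also 1 with a floor of 16 or 32, without the filter or without the variance trend. Without scaling it was 0, and with 75th percentile scaling 2. In 3 genes, Idi1, Stard4 and Insig1, both samples were above all controls (8.23% of all genes), and in none were both below (12.4%).

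The comparisons with control share the 4 control samples, and these moved together: control replicate 6 was the highest control for Idi1, Sqle, Lss, Cyp51, Dhcr7 and Insig1, and control replicate 5 the lowest for Hmgcs1, Idi1, Sqle, Cyp51 and Dhcr7. Between doses, 0 of the 8 genes were called in each of the 3 comparisons (0%, 0.0152% and 0% of all genes at 0.5% against 0.1%, 1.0% against 0.1% and 1.0% against 0.5%), so no neighbours in the order of the diets differed past the threshold for any gene. The widest differences were 0.82 ± 0.30 (SE) for Idi1 between 1.0% and 0.1% (limma adjusted p = 0.314) and 0.66 for Stard4 between 1.0% and 0.5%. The slope on percent phloridzin was above 0 for all 8 genes (46.5% of all genes), from 0.02 for Lss to 0.71 for Idi1, and 0 were called (0%). At an unadjusted p under 0.05 the slope held Idi1 and Stard4 (8.83% of all genes) and limma's F-test over the 4 diets Dhcr7 (unadjusted p = 0.0428) and Stard4 (0.0182), against 9.25% of all genes. No member was called by the F-test (0.0152%), where the smallest limma adjusted p was 0.483.

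Averaged over the 8 genes and set to the control mean, the samples ranged from -0.35 to 0.45 in control liver (-0.18, 0.09, -0.35 and 0.45), 0.06, 0.33 and 0.44 at 0.1%, 0.30 and 0.12 at 0.5%, and 0.40 and 0.52 at 1.0%. Only 1.0% replicate 4 was above the highest control. The SD within diets was 0.26. The RNA labelled with 2 diets was at 0.13.

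**Figure D3:**
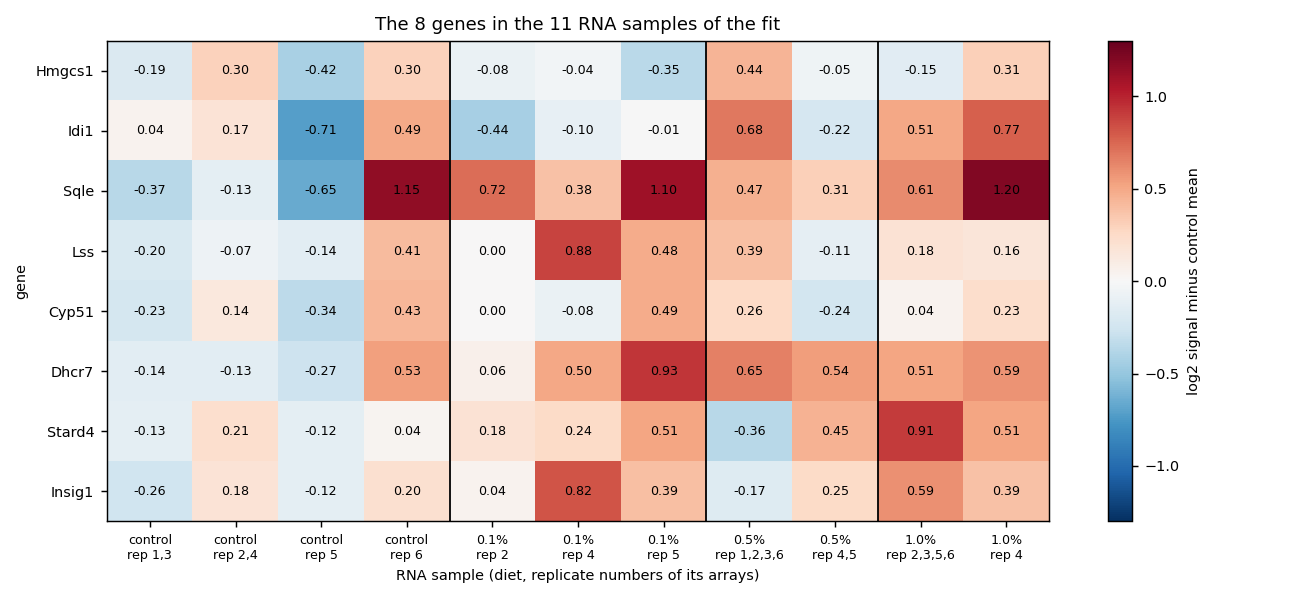
Log2 signal minus the control mean (colour and printed value) of the 8 genes (rows) in the 11 RNA samples (columns, by diet and replicate numbers of their arrays; vertical lines separate the diets). The 0.5% RNA of replicates 1, 2, 3 and 6 is above the control mean for the 6 enzymes and below it for Stard4 (-0.36) and Insig1 (-0.17), and control replicate 6 is above it for all 8 genes.

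Over the 11 samples the 8 genes fell into overlapping patterns. Of 28 pairs of genes 26 had a correlation above 0, with a median r of 0.48 and a highest r of 0.81 between Sqle and Dhcr7. Hmgcs1 went with Idi1 (r = 0.73) and Stard4 with Insig1 (r = 0.75), while the pairs across them were low or negative: -0.22 between Hmgcs1 and Stard4 and -0.03 between Hmgcs1 and Insig1. With the mean of the other 7 genes, Sqle (r = 0.82), Dhcr7 (0.81) and Cyp51 (0.73) were closest and Hmgcs1 (0.36) and Stard4 (0.38) farthest. These are descriptions over samples that share array scaling and diets.

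Of the 13110 other genes tested, the one closest to the mean of the 8 was Nsdhl (r = 0.93), a sterol dehydrogenase that acts after Cyp51 in the same pathway. The next 7 were Zfp239 (0.90), Atp4a (0.90), Heyl (0.88), Xab2 (0.87), Aurka (0.86), Celsr2 (0.86) and Gapdhs (0.85), with n = 11 samples for each. Nsdhl measured 8.81, 9.12, 8.64 and 9.67 in control liver, 9.20, 9.27 and 9.46 at 0.1%, 9.35 and 8.99 at 0.5%, and 9.35 and 9.37 at 1.0%, with control replicate 6 again the highest. It differed from control by 0.25 ± 0.19, 0.12 ± 0.22 and 0.30 ± 0.22 (SE; limma adjusted p = 0.725, 0.992 and 0.825). Among the other enzymes, Fdps, which makes farnesyl diphosphate, ranked 59 of 13110, the methyl sterol oxidase Msmo1 73, and Ebp, the sterol isomerase, 1747.

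The rest of the pathway was read from a list of 14 other enzymes of sterol synthesis, of which 11 were measured. At 0.1% 11 of the 11 were above control, at 0.5% 3 and at 1.0% 9, with medians of 0.10, -0.05 and 0.17, and 0 were called in each comparison. Pmvk, phosphomevalonate kinase, had an unadjusted p under 0.05 at 0.1% (0.53 ± 0.18, SE; limma adjusted p = 0.499) and at 0.5% (0.44 ± 0.20; adjusted p = 0.950). Fdft1, squalene synthase, was at 0.29 ± 0.15, -0.05 ± 0.17 and -0.04 ± 0.17, and Tm7sf2, a sterol reductase, at 0.29 ± 0.16, -0.15 ± 0.18 and 0.14 ± 0.18. The median of the 8 genes was above that of these 11 at each dose, and the members had been chosen with results of these data known.

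**Figure D4:**
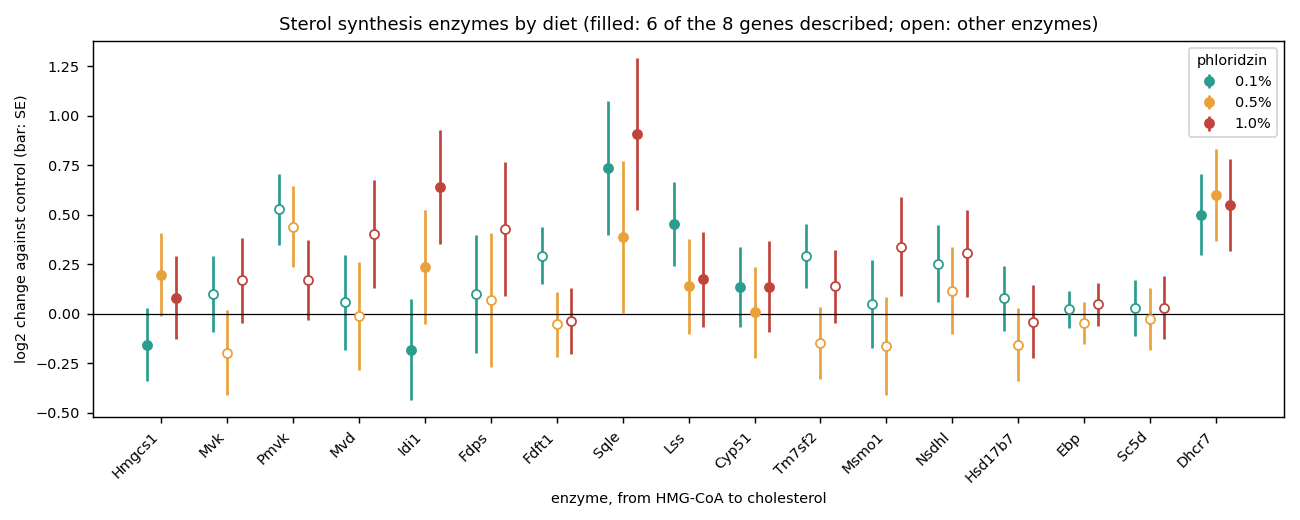
Log2 change against control (y axis, with SE bars) of 17 enzymes of sterol synthesis in pathway order (x axis), coloured by dose of phloridzin; filled points are 6 of the 8 genes described and open points the 11 other enzymes measured. The widest differences are those of Sqle (0.91 at 1.0% and 0.74 at 0.1%), and Ebp and Sc5d stay near 0.

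Of 14 genes of SREBP control and lipoprotein uptake 11 were measured, and 5, 5 and 3 of them were above control at the 3 doses (medians -0.05, -0.01 and -0.12), with 0 called. Insig2, a relative of Insig1, was at -0.26 ± 0.11 (SE), -0.17 ± 0.13 and -0.12 ± 0.13 (limma adjusted p = 0.551, 0.984 and 0.874), and so opposite in sign to Insig1. Scap, which escorts SREBP out of the endoplasmic reticulum, was at 0.11 ± 0.14, -0.13 ± 0.16 and -0.39 ± 0.16 (adjusted p = 0.831, 0.984 and 0.759). Mbtps2, a protease that releases SREBP, was at -0.35 ± 0.17, 0.09 ± 0.19 and 0.07 ± 0.19.

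On the side of disposal, 11 of 14 genes of sterol efflux and bile acid synthesis were measured, with 3 above control at each dose, medians of -0.05, -0.05 and -0.03, and 0 called. Nr0b2, the repressor known as SHP, was at -0.45 ± 0.18 (SE), -0.90 ± 0.21 and -0.90 ± 0.21 (limma adjusted p = 0.551, 0.415 and 0.620). Cyp7a1, the hydroxylase that starts classical bile acid synthesis, was at 0.66 ± 0.43, 2.10 ± 0.49 and 0.91 ± 0.49 (adjusted p = 0.682, 0.415 and 0.772), with 8.07 and 7.52 in the 0.5% samples against 5.42 to 6.06 in control liver. Cyp7b1, of the alternative bile acid route, was at -0.25 ± 0.09, -0.29 ± 0.10 and -0.05 ± 0.10. Among 14 genes of fatty acid synthesis, which SREBP also drives, 13, 10 and 12 were above control, with medians of 0.35, 0.13 and 0.16 and 0 called, and Acss2, the cytosolic acetyl-CoA synthetase, was at 0.69 ± 0.17, 0.55 ± 0.20 and 0.43 ± 0.20 (adjusted p = 0.477, 0.751 and 0.761). Acacb was at 0.68 ± 0.21, 0.60 ± 0.23 and 0.63 ± 0.23 and Scd1 at 0.38 ± 0.11, 0.25 ± 0.13 and 0.08 ± 0.13.

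Other gene lists and cell type markers gave the following values in the same samples. The mean of 10 fasting genes was -0.43 and -0.22 in the 1.0% samples, against -0.15 to 0.18 in control liver, and -0.40, -0.26 and -0.08 at 0.1%. Of these 10 genes 4, 4 and 2 were above control at the 3 doses and 0 were called, with Igfbp1, which the liver secretes when insulin is low, at -1.69 ± 0.43 at 1.0% (SE; limma adjusted p = 0.620). Of 15 clock genes 8, 7 and 7 were above control and 0 were called. In the 0.1% samples the mean of 6 Kupffer cell markers was -0.14, -0.36 and -0.29, against -0.05 to 0.09 in control liver, and 1 of the 6 was above control. The mean of 6 sinusoidal endothelial markers was -0.45 in 0.1% replicate 4 and between -0.15 and 0.04 in the other 10 samples. The mean of the 5 measured hepatocyte markers lay between -0.10 and 0.05 in all 11 samples. Of these markers, Tat ran from 10.65 to 11.34 (log2 signal) against a control mean of 11.17. Stellate cell markers had medians of -0.13, 0.02 and -0.19 at the 3 doses and neutrophil markers of -0.00, 0.48 and 0.08. The 3 measured of 5 cholangiocyte markers, near the floor, had medians of 0.45, 0.70 and 0.40, with 3, 3 and 2 of them above control, and Sox9 had an unadjusted p under 0.05 at 0.1 and 0.5%. Of 4 pancreatic acinar markers 1 was measured, Prss2 (0.56, 0.37 and 0.24), of 5 lymphocyte markers 1, Ms4a1 (0.03, -0.15 and -0.05), and of 4 adipocyte markers 0. Other markers also had an unadjusted limma p under 0.05. Stab2 was lower at each dose, Tat at 0.1 and 0.5%, Vsig4, Cd163 and Dcn at 0.1% and Col1a1 at 1.0%. S100a8 was higher at 0.5%. None of the markers was called. The part of these values in those of the 8 genes was not tested.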

How the data were processed

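Liver RNA of mice on 4 diets was measured on 24 single-colour arrays. The authors deposited a linear intensity per probe set (45101). How probes were summarised, background-corrected and scaled is not given in the sources used here, and array medians ran from 9.49 to 18.0, so the absolute scale is unknown. Signals were quantile-normalized, floored at 8 and log2-transformed (floor 3.00, holding 5.44% of values), which understates changes of dim transcripts. Names came from the platform annotation, which can be old: 34945 probe sets had 1 gene, 932 several and 9160 none, and 64 were controls. The lowest 40% by mean were left out (27022 remained). Where a gene had several probe sets, the brightest on average stood for it.

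Among 276 pairs of arrays, 13 pairs with an SD of the log2 difference of 0.0436 to 0.0577 over 1463 well measured genes (threshold 0.08) were averaged as repeats. A further 8 pairs (0.108 to 0.137) were joined by the ratio of that SD over the 200 most variable genes to the rest (0.940 and 1.32; threshold 1.4; next 1.45). The other 255 pairs were at 0.164 or more. The thresholds were chosen after seeing the data.

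Tests used lmFit and eBayes (trend) of limma 3.58.1 in R 4.3.3, in 1 fit over 4 diets with 7 residual degrees of freedom, two-sided, with Benjamini-Hochberg adjustment over 13118 genes and calls under 0.05. Comparisons between doses came from the same fit and were added to the design. The fit was tested on simulated data. Alternatives were other scalings, floors, filters, choices of probe set and of samples, the replicate block, other variance models and leaving out each RNA sample.

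The members, 6 gene lists and markers of 9 cell types were chosen with earlier results of these data known. Named genes were all members, up to 3 others of a list with the lowest F-test p, and the 8 genes most correlated with the members' mean. Same-numbered samples of different diets did not deviate together (36 pairs, r from -0.15 to 0.42, 6 over 0.1), so numbers were not taken as pairs. Promoters came from RefSeq (GRCm38.p6). Sqle had none, and the chromosome of Stard4 was left out of the members' search.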

Additional observations from a re-analysis of the deposited data

Results flagged for a closer look

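Dhcr7 in control replicate 6 stood apart from the other control samples: its gap to the nearest of them was 0.837 of the group's whole range, past the 95% critical value for 4 samples. Chance gives such a gap in about 1 in 20 groups, and 8 genes were examined in the only group large enough. Without this sample Dhcr7 was 0.68, 0.78 and 0.73 (log2) above control at 0.1, 0.5 and 1.0%, with limma adjusted p = 0.514, 0.676 and 0.968, so it was not called there either. At 0.1% it was 0.28 without 0.1% replicate 5.

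The RNA labelled with 2 diets entered no comparison. In it Dhcr7 was at 8.85, Stard4 at 8.75 and Insig1 at 8.88 (log2 signal), each above all 4 control samples, while Hmgcs1 was at 9.88, under all of them. Idi1, Sqle, Lss and Cyp51 lay within the range of the controls. How many of all genes lay above or below all controls in this RNA was not counted, so these positions are only described. Both diets on its labels contain phloridzin, and the difference was not tested because this is 1 RNA.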

How the results depend on the processing

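Over all settings the 8 genes gave 672 values against control: 604 kept their sign and their side of the threshold, 50 changed sign and 18 passed the threshold. All 18 were in the fits that count the 24 arrays as separate samples, which takes repeats of 1 RNA as replicates and includes the RNA labelled with 2 diets. Outside these fits the smallest limma adjusted p was 0.147. With 24 arrays, 4, 1 and 4 members were called at 0.1, 0.5 and 1.0% and 6 by the F-test, against 20.1%, 3.42%, 3.06% and 35.9% of all genes. Of the 4 at 0.1%, Hmgcs1 was below control and Sqle, Dhcr7 and Insig1 were above it. The replicate block on the same arrays gave the same counts of 4, 1, 4 and 6 (20.8%, 3.3%, 2.65% and 35.9%). Both fits put Stard4 at -0.10 and Insig1 at -0.016 at 0.5% and Hmgcs1 at -0.17 at 1.0%. In 13 and in 15 samples Stard4 was at -0.089 and Insig1 at -0.029 at 0.5%, and in 15 Hmgcs1 at -0.16 at 1.0%.

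Scaling moved the median of all genes. With arrays centred on their medians it lay at -0.08, -0.09 and -0.20, and Cyp51, Stard4 and Insig1 were at -0.13, -0.11 and -0.12 at 0.5%, Hmgcs1, Lss and Cyp51 at -0.22, -0.044 and -0.12 at 1.0%, and the members' median there at 0.24. With the 75th percentile, Cyp51, Stard4 and Insig1 were at -0.033, -0.014 and -0.022 at 0.5% and Hmgcs1 at -0.070 at 1.0%. Without scaling (all genes -0.16, -0.19 and -0.35), Cyp51 was at -0.062 at 0.1%. At 0.5% Hmgcs1, Idi1, Lss, Cyp51, Stard4 and Insig1 were then at -0.095, -0.034, -0.084, -0.23, -0.21 and -0.22 and the members' median at -0.089, and at 1.0% Hmgcs1, Lss and Cyp51 were at -0.38, -0.20 and -0.28 and the median at 0.078. With the mean of a gene's probe sets, Idi1 was at 0.049 at 0.1%, and Lss and Stard4 at -0.035 and -0.045 at 0.5%. Leaving out x and s probe sets put Lss at -0.12 at 0.5% and -0.15 at 1.0%. The cause of these changes was not tested.

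Leaving out each RNA sample in turn gave, at 0.1%, Hmgcs1 -0.30 to -0.056, Idi1 -0.42 to -0.017, Sqle 0.52 to 1.12, Lss 0.24 to 0.68, Cyp51 -0.041 to 0.28, Dhcr7 0.28 to 0.72, Stard4 0.21 to 0.38 and Insig1 0.22 to 0.61. At 0.5% it gave Hmgcs1 -0.052 to 0.44, Idi1 -0.22 to 0.68, Sqle 0.17 to 0.77, Lss -0.11 to 0.39, Cyp51 -0.24 to 0.26, Dhcr7 0.51 to 0.78, Stard4 -0.36 to 0.45 and Insig1 -0.17 to 0.25. At 1.0% Hmgcs1 ran from -0.15 to 0.31, Idi1 0.40 to 0.80, Sqle 0.61 to 1.29, Lss 0.11 to 0.31, Cyp51 0.022 to 0.28, Dhcr7 0.46 to 0.73, Stard4 0.51 to 0.91 and Insig1 0.39 to 0.59. The lowest values of Idi1 and Cyp51 there were without control replicate 5, and that of Lss without control replicates 1 and 3. The members' median stayed above 0, at 0.24 to 0.49, 0.03 to 0.42 and 0.42 to 0.64. With 2 samples each at 0.5 and 1.0%, such a fit leaves a lone sample, which is assumed to vary like the other groups.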
